A study of Mus musculus with 13 samples.

Results

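Of the 20205 probes on these mouse arrays, 9 carry one of 8 gene symbols: Lyzl4, Sfxn1, Spink1, Rims1, Fubp1, Glo1, Pigf and Hcfc2. The 8 genes were chosen by their ratio of NT1 over TBV, which for at least 1 probe of each gene lay below 0 in every independent pair of RNA sources. That choice used the same contrast that is described here, so the ratios of NT1 over TBV are given as a description and carry no test. Hcfc2 has 2 probes and the other 7 genes 1 each, out of 9669 genes named by a probe with a single symbol. The whole set of 9 probes is described, including the Hcfc2 probe that did not meet the criterion.

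Total RNA from sources named NT1 and TBV was hybridised together on 13 two-colour arrays. The series title places a homozygous Sall4 loss beside NT1, and Sall4 is a zinc finger gene active in early embryonic cells. The labels give no cell type, strain, sex or treatment for either source. Whether the sources NT1 1 and TBV2 are separate clones is not said either, so clones cannot be separated from the genotype. NT1 was labelled with Cy5 on 7 arrays and TBV on 6. NT1p14 was set against TBVp13 on 5 arrays, NT1p12 against TBVp12 on 4, NT1 1 against TBV2 on 2, and NT1p12 against TBVp13 on 2. The first 3 of these pairs share no source, whereas the last takes 1 source from each of the first and second and is reported apart. The 12, 13 or 14 that follows p in a source name was taken for its passage. Nothing says that the sources came from separate cultures, so the SD over pairs may be partly technical.

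The values are ratios on a scale read as log2, with arrays of TBV in Cy5 multiplied by -1 so that a value below 0 stands for less signal from NT1. The numerator and the log base are not given in the sources used here. A reversed numerator would turn every sign at once. The dye-balanced values of NT1p14 with TBVp13 and NT1p12 with TBVp12 ran against each other over all probes (r = -0.50), and r with NT1 1 with TBV2 was 0.12 for the former and -0.019 for the latter. Genes are not independent replicates, and the direction of 1 pair relative to another is not settled either. If NT1p14 with TBVp13 is given the opposite sign, the means of Lyzl4, Sfxn1, Spink1 and Rims1 become -0.19, -0.19, -0.16 and -0.17. Those of Fubp1, Glo1, Pigf and Hcfc2 probe 15062 become -0.072, -0.65, -0.65 and -0.72. If NT1p12 with TBVp12 is turned instead, Fubp1 (0.0059), Glo1 (0.18) and Pigf (0.24) come to lie above 0, while Lyzl4, Sfxn1, Spink1, Rims1 and Hcfc2 probe 15062 stay below it at -0.22, -0.13, -0.13, -0.087 and -0.28. In bulk RNA, fewer cells of a type and less RNA per cell cannot be told apart.

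Many deposited values carry no decimals: 19.3% of all 220028 are whole numbers, and just 79 of the 19859 ratios at or beyond 1 in size have decimals. A whole number therefore stands for a range of ratios. Among the members, Lyzl4, Rims1 and Hcfc2 probe 12008 kept decimals on all 13 arrays, Spink1 on 9 of 13, Sfxn1 on 3 of 12, Fubp1 on 3 of 13, Glo1 on 2 of 11, Pigf on 2 of 13 and Hcfc2 probe 15062 on 0 of 12. Probes with a value numbered 14314 to 18381 per array, and the table holds no intensities. The Sall4 probe had a mean of -0.28 ± 0.33 (SD, n = 3 pairs), and where it lies relative to the mutation is not known here, so it checks nothing. In the order of the 3 independent pairs given above, the medians of pluripotent cell markers were -0.062, -0.52 and -0.16. Of 15 measured genes 7 (46.7%) were below 0 in all 3, against 5.45% of all 7968 genes. Fibroblast markers had medians of 0.44, -0.40 and -0.47, with 1 of 16 genes below 0 in all 3. Of 5 measured trophectoderm markers, Krt18 (0.38), Krt19 (0.21) and Cldn4 (0.33) were above 0 in all 3 pairs and Lgals3 (-0.074) below. Ascl2 (-0.027) was mixed. Over all genes, 713 were above 0 in all 3. Of 8 measured primitive endoderm markers, 0 were below 0 in all 3 pairs and 0 above. The part of these cell types in the member ratios was not tested.

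The members do not form 1 pathway. Lyzl4 belongs to the lysozyme-like proteins known from sperm and epididymis. Sfxn1 encodes a mitochondrial serine transporter that feeds one-carbon metabolism, and Glo1 encodes glyoxalase I, which detoxifies methylglyoxal with glutathione. Pigf takes part in adding ethanolamine phosphate to the glycosylphosphatidylinositol (GPI) anchor, which ties many surface proteins to the membrane. Spink1 is a Kazal-type inhibitor of trypsin, abundant in the pancreas, and Rims1 is a scaffold of the presynaptic active zone that binds Rab3. Fubp1 encodes a DNA-binding protein of the far upstream element of Myc, and Hcfc2 a relative of the chromatin-bound host cell factor Hcfc1.

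In GRCm38.p6 the genes lie on 7 chromosomes, with Glo1 and Pigf both on chromosome 17. The promoters shown are those of the 2 pairs of members whose arrays read almost alike (Sfxn1 with Fubp1, Glo1 with Pigf) and of the 2 members below 0 on every array (Lyzl4 and Rims1). For Lyzl4, which has 3 annotated starts, the outermost is shown, and the innermost of its promoters holds no GC box. Each runs from 250 bases before to 50 after the annotated start, 5′ to 3′ on the gene's strand, from RefSeq. Capitals mark matches to 1 of 6 motifs on either strand: the TATA box TATAAA, the CCAAT box CCAAT, the GC box GGGCGG, the E-box CACGTG, the octamer ATGCAAAT and the AT-rich ATATT.
Sfxn1, chr13:54071595-54071894, plus strand: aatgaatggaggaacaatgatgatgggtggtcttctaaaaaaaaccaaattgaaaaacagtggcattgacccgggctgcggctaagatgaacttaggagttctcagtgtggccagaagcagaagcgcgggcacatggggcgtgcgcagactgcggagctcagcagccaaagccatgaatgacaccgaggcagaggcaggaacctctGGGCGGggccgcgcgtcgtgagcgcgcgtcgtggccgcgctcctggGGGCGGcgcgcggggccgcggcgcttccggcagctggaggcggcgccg
Fubp1, chr3:152210172-152210471, plus strand: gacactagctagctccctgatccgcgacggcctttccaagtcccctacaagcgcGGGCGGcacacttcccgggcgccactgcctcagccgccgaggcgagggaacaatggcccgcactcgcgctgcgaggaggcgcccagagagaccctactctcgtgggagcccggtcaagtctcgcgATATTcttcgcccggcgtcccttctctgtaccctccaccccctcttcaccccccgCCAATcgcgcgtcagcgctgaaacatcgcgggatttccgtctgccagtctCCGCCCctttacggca
Glo1, chr17:30612610-30612909, minus strand: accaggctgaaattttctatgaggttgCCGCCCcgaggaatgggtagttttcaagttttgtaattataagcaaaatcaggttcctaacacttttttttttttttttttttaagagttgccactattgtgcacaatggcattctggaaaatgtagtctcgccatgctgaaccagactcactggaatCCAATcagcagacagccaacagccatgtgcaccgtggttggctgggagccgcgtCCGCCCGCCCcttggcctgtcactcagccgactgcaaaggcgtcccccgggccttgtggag
Pigf, chr17:87025352-87025651, minus strand: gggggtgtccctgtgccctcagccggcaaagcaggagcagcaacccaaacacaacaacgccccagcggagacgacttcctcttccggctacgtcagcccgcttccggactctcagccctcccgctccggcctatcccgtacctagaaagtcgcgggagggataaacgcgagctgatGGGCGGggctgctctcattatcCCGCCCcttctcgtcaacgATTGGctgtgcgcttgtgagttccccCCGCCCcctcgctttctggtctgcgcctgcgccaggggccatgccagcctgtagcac
Lyzl4, chr9:121642072-121642371, minus strand: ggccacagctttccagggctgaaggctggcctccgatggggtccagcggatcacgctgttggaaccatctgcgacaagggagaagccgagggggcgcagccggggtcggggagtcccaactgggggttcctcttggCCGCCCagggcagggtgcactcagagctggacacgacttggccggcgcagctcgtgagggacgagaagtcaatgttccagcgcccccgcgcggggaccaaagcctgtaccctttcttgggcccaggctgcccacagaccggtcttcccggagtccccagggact
Rims1, chr1:22806109-22806408, minus strand: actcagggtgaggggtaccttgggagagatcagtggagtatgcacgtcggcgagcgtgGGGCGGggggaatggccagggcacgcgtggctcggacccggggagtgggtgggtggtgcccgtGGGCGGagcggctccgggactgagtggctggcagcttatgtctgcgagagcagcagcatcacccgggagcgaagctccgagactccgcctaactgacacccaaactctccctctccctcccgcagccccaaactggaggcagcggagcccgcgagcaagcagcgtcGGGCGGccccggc

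Promoters on chromosome 18, which holds Spink1, were left out. The other 7 members had 10 annotated starts. A GC box was present in 9 of these 10 promoters, against 35.7% of all 32851 promoters, and in at least 1 promoter of each of the 7 genes. GC content of the 10 ranged from 49.7% (Glo1) to 70.7% (Hcfc2), against a median of 52.7% over all promoters. A CCAAT box was present in the promoters of Fubp1, Glo1 and Pigf, against 37.4% of all promoters. An E-box was present in both Hcfc2 promoters (7.15% of all), and ATATT in that of Fubp1 (25.3% of all). The Hcfc2 promoters overlap and share this E-box and a GC box, so they are not separate counts. TATAAA and the octamer had 0 matches in the 10, against 13.6% and 1.74% of all promoters. These are matches of letters only.

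Lyzl4 and Rims1 were below 0 on all 13 arrays. Only 10 of the 15968 probes with at least 10 array values did so, or 0.0626%, a share from the contrast that chose the members and given as background. Probes below 0 in all 3 independent pairs were more frequent, 852 of 15973 or 5.33%. In the opposite direction, 1445 probes were above 0 in all 3. These counts rest on the pair directions as read: with NT1p14 with TBVp13, NT1p12 with TBVp12 or NT1 1 with TBV2 turned, 2292, 3618 or 785 probes would be below 0 in all 3. The 8 genes are thus a small choice from 504 named genes with such a probe. In the fit of NT1 over TBV on 3 pairs (limma) no probe passed at an adjusted p of 0.05 (0% of 15973), with 164 probes at an unadjusted p under 0.05.

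Lyzl4 had the most even ratio of the set. On the 5 arrays of NT1p14 with TBVp13 it read -0.42, -0.57, -0.57, -0.84 and -0.84, and on the 4 of NT1p12 with TBVp12 -0.61, -0.49, -0.81 and -0.58. Both arrays of NT1 1 with TBV2 read -0.62, and those of NT1p12 with TBVp13 -0.27 and -0.46. The pair with shared sources was the closest to 0, and the arrays of the 3 independent pairs overlapped. The pair values of -0.66, -0.62 and -0.62 gave a mean of -0.63 ± 0.023 (SD, n = 3 pairs). With NT1 in Cy5 the mean was -0.59 and with TBV in Cy5 -0.67.

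Rims1 spread more than Lyzl4 between arrays and between pairs. The arrays of NT1p14 with TBVp13 read -0.078, -0.15 and -0.37 with NT1 in Cy5, and -0.27 and -0.73 with TBV in Cy5. Those of NT1p12 with TBVp12 read -0.57 and -0.30, then -0.50 and -0.52 in the other orientation. NT1 1 with TBV2 gave -0.38 and -0.39, and NT1p12 with TBVp13 -0.22 and -0.43. The array nearest 0 and the lowest array both belonged to NT1p14 with TBVp13. Pair values of -0.35, -0.47 and -0.38 gave a mean of -0.40 ± 0.063 (SD, n = 3 pairs).

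Spink1 was below 0 on 11 of 13 arrays and at 0 on the 2 arrays of NT1p12 with TBVp13. In NT1p14 with TBVp13 its values were -0.28, -0.49, -0.017, -1 and -1, the last 2 of them whole numbers. In NT1p12 with TBVp12 they were -0.90, -0.53, -0.34 and -0.63, and in NT1 1 with TBV2 -0.42 and -0.47. Among the 3 independent pairs, NT1p14 with TBVp13 therefore held both the value nearest 0 and the lowest values. Pair values of -0.55, -0.60 and -0.44 gave a mean of -0.53 ± 0.080 (SD, n = 3 pairs). The 0 in the pair with shared sources rests on 2 whole numbers, on arrays where 40.4% and 40.3% of all values were whole.

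**Figure D1:**
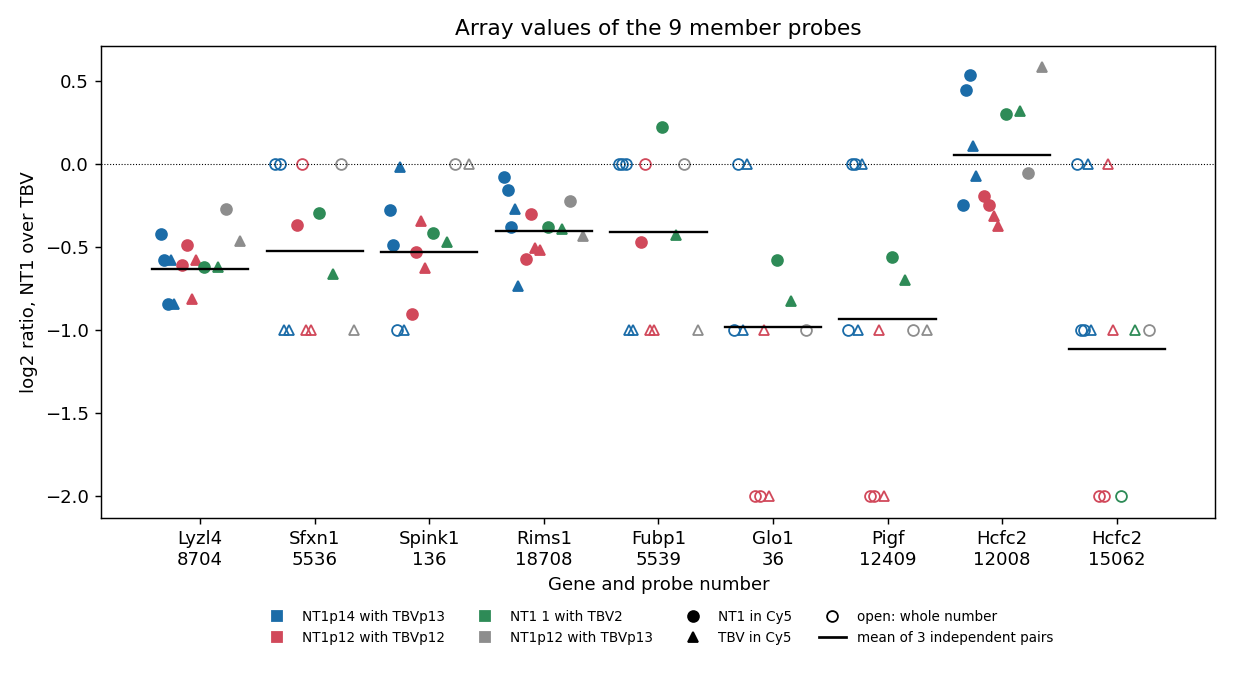
Log2 ratio of NT1 over TBV (y axis) on each array for the 9 member probes (x axis), coloured by source pair, with circles for NT1 in Cy5, triangles for TBV in Cy5 and open symbols for whole numbers. Black bars give the mean of the 3 independent pairs, from 0.055 for Hcfc2 probe 12008 to -1.11 for Hcfc2 probe 15062, and all 13 symbols of Lyzl4 and of Rims1 lie below 0.

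The mitochondrial serine transporter gene Sfxn1 had its decimals on 3 arrays: -0.29 and -0.66 in NT1 1 with TBV2, and -0.37 on array 1 of NT1p12 with TBVp12. Its other 4 arrays with NT1 in Cy5 all read 0 and its other 5 with TBV in Cy5 all read -1. The ratio was thus nearer 0 with NT1 in Cy5 in all 4 pairs. Pair values of -0.50, -0.59 and -0.48 gave -0.52 ± 0.061 (SD, n = 3 pairs). That small SD goes with a mean of -0.16 in arrays with NT1 in Cy5 only and -0.89 in those with TBV in Cy5 only.

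Fubp1 followed the same course. Array 1 of NT1 1 with TBV2 read 0.23, the only value above 0 among the 8 probes that met the criterion, and array 2 read -0.43. Array 1 of NT1p12 with TBVp12 read -0.47, the other 5 arrays with NT1 in Cy5 read 0, and the other 5 with TBV in Cy5 read -1. Below 0 were 7 of 13 arrays. Pair values were -0.50, -0.62 and -0.10, and the mean was -0.40 ± 0.27 (SD, n = 3 pairs). With NT1 in Cy5 only the mean was -0.0016, and with TBV in Cy5 only -0.81. Without NT1 1 with TBV2 it was -0.56.

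The dye component, the mean of both orientations before the sign is turned, was not used in choosing the members and was tested for all probes. Sfxn1 had a dye component of 0.36 ± 0.16 and Fubp1 one of 0.40 ± 0.088 (SD, n = 3 pairs), both towards Cy5. On 3 pairs neither passed (limma, adjusted p = 0.14 for both), nor did any of 15973 probes (0%, with 3868 at an unadjusted p under 0.05). In the fit on 13 arrays with the source pair as a random block, Sfxn1 (0.43, limma adjusted p = 0.00043) and Fubp1 (0.45, limma adjusted p = 0.00042) passed, and the other 7 member probes did not. That fit called 26.2% of all probes and counts repeats of the same RNA, so 2 of 9 is close to the background. The correlation it estimated within a pair was -0.16, so the block did not make these repeats count for less. Whole numbers made up 9 of 12 values of Sfxn1 and 10 of 13 of Fubp1. With these set to missing, neither probe had a value in all 3 pairs. Hcfc2 probe 15062 had a component of -0.44 ± 0.34, on whole numbers alone (limma, adjusted p = 0.17 on 3 pairs). For Lyzl4, Spink1, Rims1, Glo1, Pigf and Hcfc2 probe 12008 the component lay between -0.043 and 0.064.

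**Figure D2:**
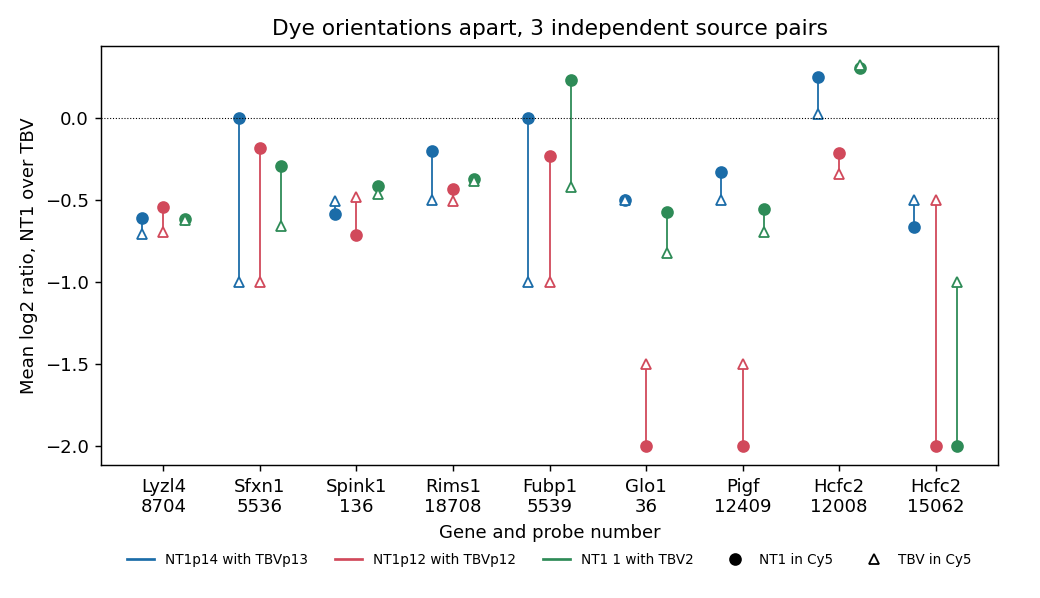
Mean log2 ratio of NT1 over TBV (y axis) for each member probe (x axis) in each of the 3 independent source pairs (colours), with filled circles for arrays with NT1 in Cy5 and open triangles for arrays with TBV in Cy5, joined by a line. The lines are longest for Sfxn1, Fubp1 and Hcfc2 probe 15062 and short for Lyzl4, whose orientation means are -0.59 and -0.67.

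Glo1 and Pigf had lower means and a far wider spread. In NT1p12 with TBVp12 both genes read -2, -2, -1 and -2 on arrays 1 to 4. In NT1 1 with TBV2, the pair with decimals, Glo1 read -0.57 and -0.82 and Pigf -0.56 and -0.69. In NT1p14 with TBVp13 the arrays split between 0 and -1: Glo1 read -1, -1, 0 and 0 on arrays 2 to 5, and Pigf read -1, 0, -1, 0 and 0 on arrays 1 to 5. NT1p12 with TBVp12 was thus lowest for both genes, and its arrays did not overlap those of the other independent pairs apart from array 3. Glo1 had pair values of -0.50, -1.75 and -0.70 and a mean of -0.98 ± 0.67 (SD, n = 3 pairs), and Pigf -0.42, -1.75 and -0.63 and a mean of -0.93 ± 0.72 (SD, n = 3 pairs). Without NT1p12 with TBVp12 the means were -0.60 and -0.52.

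In NT1p12 with TBVp13, Pigf read -1 on both arrays, and Glo1 read -1 on the array that measured it. Of the 15991 probes measured in both orientations there, 36.2% were below 0 and 31.4% at 0. Lyzl4 was at -0.37, Rims1 at -0.33, Sfxn1 and Fubp1 at -0.50, Spink1 at 0 and Hcfc2 probe 12008 at 0.27. Since this pair holds the RNA of the other pairs, these values are repeats and not further replicates.

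The 2 Hcfc2 probes disagreed. Probe 15062 read -2 and -1 in NT1 1 with TBV2, -2, -2, 0 and -1 in NT1p12 with TBVp12, and 0, -1, 0, -1 and -1 in NT1p14 with TBVp13, all whole numbers. Its mean was -1.11 ± 0.47 (SD, n = 3 pairs), from -1.55 with NT1 in Cy5 to -0.67 with TBV in Cy5. Probe 12008, with decimals throughout, read 0.30 and 0.32 in NT1 1 with TBV2 and -0.19, -0.24, -0.31 and -0.37 in NT1p12 with TBVp12. On the arrays of NT1p14 with TBVp13 it read -0.24, 0.45, 0.11, 0.54 and -0.070, and its mean was 0.055 ± 0.30 (SD, n = 3 pairs). It was below 0 on 7 arrays and above on 6, so the direction of Hcfc2 depends on the probe. Which part of the transcript either probe covers is not known here.

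By mean, the order from lowest was Hcfc2 probe 15062, Glo1, Pigf, Lyzl4, Spink1, Sfxn1, Fubp1, Rims1 and Hcfc2 probe 12008. Neighbours in this order differed by less than the larger of their SDs, except Lyzl4 from Spink1 and Rims1 from Hcfc2 probe 12008. Nearest to 0 among the pair values that met the criterion was Fubp1 in NT1 1 with TBV2, at -0.099. Outside it, Hcfc2 probe 12008 stood at 0.13 in NT1p14 with TBVp13 and 0.31 in NT1 1 with TBV2.

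Likeness between probes was measured as the root mean square difference over the arrays on which a member had a value. Only named probes with a value on all of these arrays were compared, so probes measured on fewer arrays could be missed. The measure uses the ratios of NT1 over TBV that chose the members. Near probes, other members among them, therefore tend to be low too, and the likeness is a description only. For Sfxn1 the nearest of 6727 named probes was Fubp1, at 0.17 over 12 arrays, against a median of 0.76 over all those probes. Their values were equal on 9 of 12 arrays, all whole numbers, and r was 0.95. Their probe numbers, 5536 and 5539, lie close together, and the place of a probe on the array is not in the files. Car11, a member of the carbonic anhydrase family, came next at 0.23.

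For Glo1 the nearest of 7040 probes was Zfp42 (Rex1), a marker of undifferentiated embryonic stem cells, at 0.30 over 11 arrays, closely followed by Pigf, also at 0.30. Glo1 equalled Zfp42 on 9 and Pigf on 8 of 11 arrays. For Pigf, Zfp42 was nearest among probes with a value on all 13 arrays, at 0.37 with 10 equal values, then Stmn2 at 0.48. Glo1, measured on 11 arrays, was not among the probes compared with Pigf. Over those 11 arrays Pigf and Glo1 were at 0.30, as given above. Zfp42 had pair values of -0.58, -1.75 and -0.0095 and a mean of -0.78 ± 0.89 (SD, n = 3 pairs). It parted from Glo1 and Pigf in NT1 1 with TBV2, the pair in which both genes kept decimals.

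**Figure D3:**
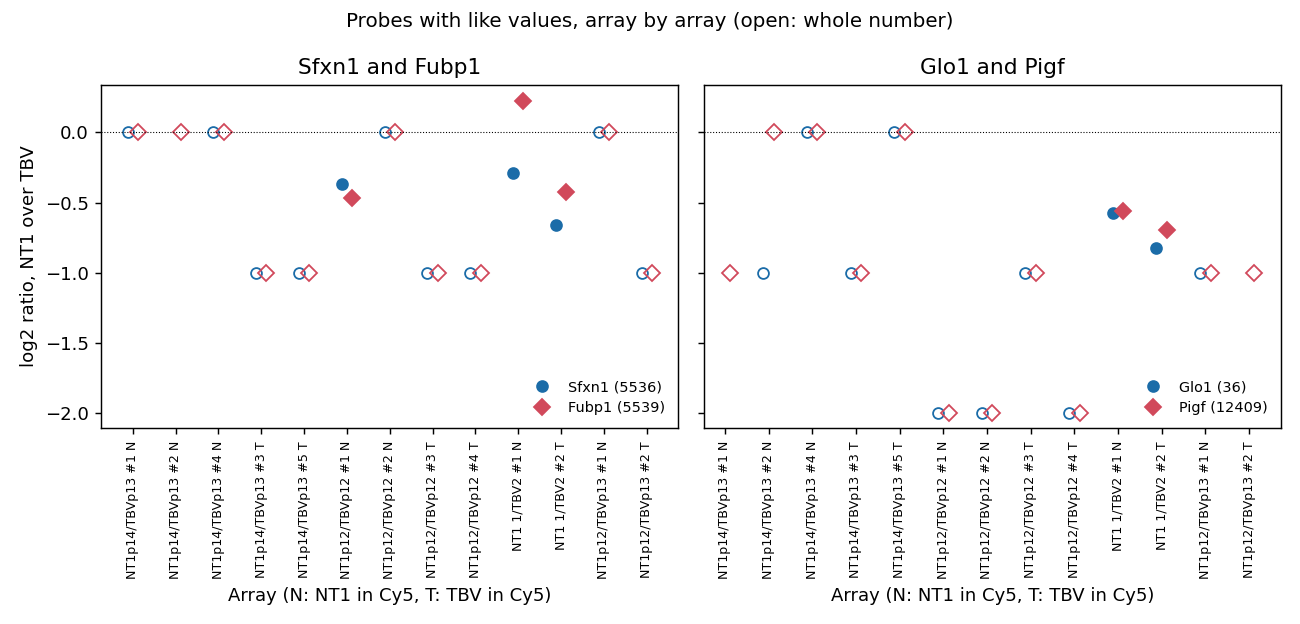
Log2 ratio of NT1 over TBV (y axis) on each of the 13 arrays (x axis, by source pair and orientation) for Sfxn1 and Fubp1 on the left and Glo1 and Pigf on the right, with open symbols for whole numbers. Both symbols, drawn side by side, stand at the same height on 9 of 12 shared arrays on the left and on 8 of 11 on the right, all of them whole numbers.

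Lyzl4 was nearest to Rims1 (0.26 over 13 arrays) and Spink1 (0.28). Spink1 was nearest to Ivns1abp (0.22) and then to Lyzl4, and Rims1 to Eprs, a tRNA synthetase gene, and Ccne1, which encodes cyclin E1 (0.19 each). Among probes with a value on all 13 arrays, Fubp1 was nearest to the argininosuccinate synthase gene Ass1 (0.27) and to Zfp57 (0.30). Zfp57 is a zinc finger gene that guards imprints. Sfxn1 lacked a value on 1 array and was not compared there, but it differed from Fubp1 by only 0.17 over 12 arrays. Hcfc2 probe 15062 had no close neighbour, with Stmn2 at 0.74. All these arrays share their RNA sources, and many of the equal values are whole numbers.

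Relatives and pathway partners of the members were then read beside them, with probes of a gene averaged. Over all 7968 genes the median ratio was 0.0007, and 434 genes (5.45%) were below 0 in all 3 pairs and 713 above. The share below would be 16.2%, 21.6% or 5.30% with the first, second or last independent pair turned. In the fit of NT1 over TBV on averaged genes (limma), 0 of all 7968 passed at an adjusted p of 0.05. That no partner passed is therefore not a result about the partners. The lysozyme relatives Lyz2, Lyzl1 and Spaca3 stood at 0.13 ± 0.42, 0.034 ± 0.15 and 0.013 ± 0.063 (SD, n = 3 pairs), and 0 of 3 were below 0 in all pairs. For Sfxn1, 0 of 13 measured sideroflexin and serine or one-carbon genes were, with a median of -0.058. Among them Sfxn5 was above 0 in all 3 pairs at 0.076 ± 0.056, Sfxn2 was at 0.0089 ± 0.038, Sfxn3 at -0.050 ± 0.39 and Sfxn4 at -0.015 ± 0.75. Of the 13 means, 9 lay below 0, against 3957 of all 7968 genes. The lowest was that of the serine synthesis gene Psat1 at -0.41 ± 0.74. The mitochondrial folate enzyme gene Shmt2 was at -0.071 ± 0.16. By pair, in the order given above, the list medians were 0.033, -0.28 and -0.033, so the first pair did not lean below 0.

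For Pigf, 0 of 16 measured GPI anchor genes were below 0 in all 3 pairs and 1 was above in all, Pigt of the GPI transamidase, at 0.12 ± 0.057 (SD, n = 3 pairs). The list median was 0.0080. Pigo, which acts in the same ethanolamine phosphate step as Pigf, stood at 0.035 ± 0.16. For Glo1, 0 of 7 partners were below 0 in all 3 pairs and 2 were above, Gclm at 0.42 ± 0.23 and Gclc at 0.11 ± 0.14, the subunits of the enzyme that starts glutathione synthesis. Hagh, the second glyoxalase, was at 0.22 ± 0.63. In the plain counts of these lists, no measured partner of Sfxn1, Pigf or Glo1 was below 0 in all 3 pairs. With 5.45% of all genes so, lists this short may well hold none, and the members were chosen to be below 0. The counts therefore do not set the members apart, and the same holds for the lists below.

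Of 15 measured presynaptic genes, 1 was below 0 in all 3 pairs, the vesicle calcium sensor gene Syt1, at only -0.031 ± 0.015 (SD, n = 3 pairs), and 1 was above, Vamp2 at 0.12 ± 0.10. Rims3, the measured relative of Rims1, was at 0.051 ± 0.12. Of 6 genes set beside Spink1, protease and inhibitor genes and the receptor gene Egfr, 0 were below 0 in all pairs. Spink2 was at -0.085 ± 0.14 and Spink4 at -0.015 ± 0.64. For Fubp1, 0 of 5 were below and 2 above, Puf60 at 0.055 ± 0.030 and Ercc3 at 0.093 ± 0.065, while its relative Khsrp was at -0.098 ± 0.27. For Hcfc2, 0 of 14 were below in all 3 pairs, Hcfc1 was at -0.073 ± 0.56, and the list median was -0.084. Of these 14 means 11 lay below 0, against 3957 of all 7968 genes. Among the 11, Dpy30, of histone methyltransferase complexes, was at -0.53 ± 0.75 and the transcription factor gene Gabpa at -0.51 ± 0.50. By pair, in the order given above, the medians of this list were 0.13, -0.24 and -0.14, so the first pair did not share the lean.

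Genes beside the members on the chromosome were also read, the 2 nearest measured genes on each side whatever their values, a comparison chosen after the member values were known. Of these 32 neighbours, 1 was below 0 in all 3 pairs, Eid3 near Hcfc2, at -0.14 ± 0.13 (SD, n = 3 pairs). The share over all genes was 5.45%. Glo1 (chr17:30592861-30612659) lay between Btbd9 at 0.19 ± 0.31 and 1700097N02Rik at 0.022 ± 0.086, which are 10.2 and 9.8 kb away. Pigf (chr17:86997259-87025401) has Cript 0.2 kb from its start, and Cript was at 0.028 ± 0.046. Over the 409 measured genes of chromosome 17 the median was 0.0042.

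**Figure D4:**
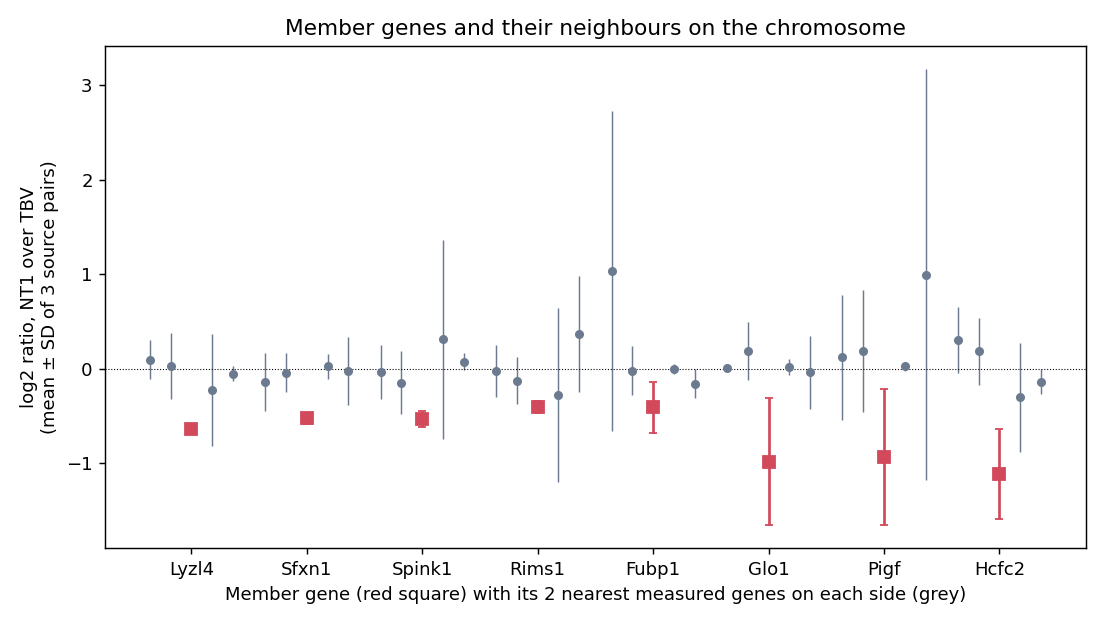
Mean log2 ratio of NT1 over TBV (y axis, mean ± SD of 3 source pairs) of each member gene, by its lowest probe (red squares), and of the 2 nearest measured genes on each side of it (grey circles, in chromosome order). Grey circles lie around 0, between -0.30 (Nfyb, beside Hcfc2) and 1.03 (Gipc2, beside Fubp1).

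Lyzl4 (chr9:121577841-121642121) lay between Cck at 0.032 ± 0.35 and Sec22c at -0.22 ± 0.59 (SD, n = 3 pairs). Fubp1 (chr3:152210422-152236830) overlaps the chaperone gene Dnajb4, which stood at -0.020 ± 0.26. Hcfc2 (chr10:82699007-82795865) overlaps Nfyb, which encodes a subunit of the factor that binds CCAAT boxes, at -0.30 ± 0.57. Sfxn1 (chr13:54071656-54108346) and Rims1 (chr1:22285972-22806158) had their nearest measured neighbours at least 350.5 and 560.3 kb away. Their neighbours Sptlc1 and Thoc3, and Tram2 and Ogfrl1, ranged from -0.28 to 0.029.

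The pair with shared sources also allows passages of 1 line to be set against each other, as a description of single sources. The ratio of NT1p14 over NT1p12 came to -0.29 for Lyzl4, -0.025 for Rims1, -0.55 for Spink1 and 0.58 for Pigf, against a median size of 0.29 over all probes. The ratio of TBVp13 over TBVp12 came to -0.25, -0.15, -0.60 and -0.75 for the same genes, against 0.22. Spink1 differed between passages of either line by about as much as NT1 differed from TBV, and that rests on the whole-number 0 in NT1p12 with TBVp13. Sfxn1 and Fubp1 gave 0 between the NT1 passages, and Glo1 gave no value. These ratios also rest on the pair directions: with NT1p14 with TBVp13 turned, NT1p14 over NT1p12 would be 1.03 for Lyzl4, 0.68 for Rims1, 0.55 for Spink1 and 1.42 for Pigf. With NT1p12 with TBVp12 turned, TBVp13 over TBVp12 would be 0.99, 0.80, 0.60 and 2.75.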

How the data were processed

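The authors deposited 1 signed value per probe and array, treated here as a log2 ratio of Cy5 over Cy3. The scale is read from the values, and scanner, normalisation and log base are not given in the sources used here. Each array was centred on its median and turned to NT1 over TBV. Within a source pair, the mean turned ratio of each dye orientation was taken and the 2 orientations were averaged, which cancels the dye. Arrays of 1 source pair are technical repeats, so n = 3. Probes with a value in all 3 independent pairs (15973) entered a two-sided limma fit (lmFit, then eBayes, version 3.58.1, R 4.3.3). Benjamini-Hochberg adjustment ran over all of them, with a threshold of 0.05. The fit was run on simulated data too, with planted effects larger in size than any member mean. Calls at the size of the member ratios were not checked there. The precision is limited by the 3 source pairs.

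Probes were named through the platform annotation where it gave 1 symbol (11723 of 20205), and 7871 of 7968 measured genes matched the RefSeq gene table of GRCm38.p6 by Entrez ID. Promoters came from RefSeq (GRCm38.p6) and were read for 7 of 8 members, with chromosome 18, which holds Spink1, left out. Named genes were the members, the 2 probes nearest each by root mean square difference, relatives in fixed lists, and chromosome neighbours. A nearest probe needed a value on every array where the member had a value, at least 10 arrays. The members and lists were chosen with earlier results of these data known. Tried besides were all 4 pairs, all arrays with a random block, single orientations, other centring, scaling and averaging, whole numbers as missing, complete probes, and pairs or arrays left out.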

Additional observations from a re-analysis of the deposited data

Results flagged for a closer look

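Of 18 sets of 4 or 5 arrays of 1 source pair and 1 member probe, 2 held an array far from the rest. Array 3 of NT1p12 with TBVp12 read -1 for Glo1 and also -1 for Pigf, while the other 3 arrays of that pair read -2 for both genes. All of these are whole numbers, and array 3 has TBV in Cy5, as has array 4. Chance flags about 1 in 20 such sets of normally spread values, and that rate need not hold for whole numbers.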

How the results depend on the processing

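The count of 0 probes past the threshold for NT1 over TBV held in all fits on source pairs, each pair and each array left out included, and became 3 on 13 arrays with the pair as a random block. The dye component, 0 on 3 pairs, became 4181 with that block, 1430 with whole numbers set to missing, 84 with values on all 13 arrays, and 0 to 1 with a pair or array left out. The cause was not tested. Of the 9 member probes, 8 were below 0 in all 3 pairs, and this count of 8 held with any array or pair left out, and was 6 with NT1 in Cy5 only. It fell to 5 of 7 with all 4 source pairs, 3 of 4 with whole numbers missing and 5 of 6 with values on all 13 arrays, since fewer members were measured, and in the first of these also because Spink1 is 0 in the added pair. Turning 1 pair, tried after the data were seen, gives 0 by construction. Fubp1 was then at 0.0059, Glo1 at 0.18 and Pigf at 0.24 with NT1p12 with TBVp12 turned. Hcfc2 probe 12008, near 0, changed sign to -0.0011 with TBV in Cy5 only and -0.073 without NT1 1 with TBV2, with a range of -0.073 to 0.22 over the pairs and arrays left out. It was at -0.034 and -0.15 with NT1p14 with TBVp13 or NT1 1 with TBV2 turned. Among 179 planned member values 162 moved by less than the SD, 15 by more, and 2 changed sign. Single arrays of NT1 1 with TBV2 could not be left out, since each is the only array of its orientation. No signal over background can be given.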

Other observations

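Besides Lyzl4 and Rims1, 8 probes were below 0 on all 13 arrays, noticed after their values were seen. The named ones were Fgf4, a growth factor gene of embryonic stem cells, with a mean of -0.48, Med13l, a Mediator subunit gene, at -0.29, the topoisomerase gene Top1 at -0.29 and the microtubule plus-end gene Mapre1 at -0.25. The other 4 have no single gene symbol. Of these 10 probes Lyzl4 had the lowest mean and the lowest highest array value, -0.27. All this rests on the pair directions as read.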
